A study of Mus musculus with 4 samples.

Results

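The genes described here are 36 genes of fatty acid oxidation and ketogenesis, chosen by symbol from the named genes of a 1-colour whole-transcript array. A gene was taken where a probe set carried its symbol alone, and several probe sets of a gene were averaged on the log2 scale. Of the 36 genes, 35 had a value, among 22180 named genes in all, and no expression value of Acsl1 was used here. The 35 genes fell into 19 of 20 listed for mitochondrial steps, 12 of 12 for peroxisomal steps, both ketogenic genes (Acat1 and Bdh1) and a last pair, Pdk4 and Aldh3a2.

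Primary hepatocytes came from 2-month-old male mice that were Chrebp-KO (KO) or wild type (WT), Chrebp being the gene Mlxipl, which encodes a sugar-responsive transcription factor. Serum-free cultures of each genotype received 25 mM fructose or none for 16 h, so that there were 4 groups: KO fructose, KO control, WT fructose and WT control. Each group was measured on 1 array, from 400 ng of total RNA. The labels do not give the deleted part of the gene, whether the deletion was confined to the liver, or how many mice stand behind an array, and the extraction label speaks of liver RNA where the other labels speak of primary hepatocytes. Since no group was replicated, the differences below carry neither an error nor a test and describe these 4 arrays only.

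Fatty acids are oxidised in mitochondria, where long-chain acyl groups cross the inner membrane as esters of carnitine. Each turn of the cycle uses an acyl-CoA dehydrogenase, a hydratase, a hydroxyacyl-CoA dehydrogenase and a thiolase. Peroxisomes shorten very long and branched chains with their own enzymes. In the fasted liver the acetyl-CoA is condensed into ketone bodies, and the nuclear receptor PPARA activates many of these genes. Malonyl-CoA, the first product of lipogenesis, inhibits the carnitine palmitoyltransferase encoded by Cpt1a.

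The background level was a log2 value of 4.764, the 95th percentile over 1105 olfactory receptor genes, and a gene was counted as detected when at least 1 of the arrays compared lay above it. Of the 35 genes, 33 lay above it on all 4 arrays. Acot3 was below it on all 4, and Hadhb was above it only on the WT fructose array (4.79, against 4.52 to 4.74 on the others), so Hadhb entered a comparison only through that array. Mlxipl itself had log2 values of 7.37 in KO fructose and 8.43 in WT fructose cells, and of 7.42 in KO control and 8.08 in WT control cells. It was 2.09-fold and 1.58-fold lower in KO, and the probe set may lie outside the deleted part. All 10 hepatocyte markers examined, Alb and Cps1 among them, were above background on every array, as were 10 or 11 of 13 macrophage and 7 of 10 endothelial markers. In RNA of a whole culture, fewer cells of a type and less RNA per cell cannot be told apart.

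**Figure D1:**
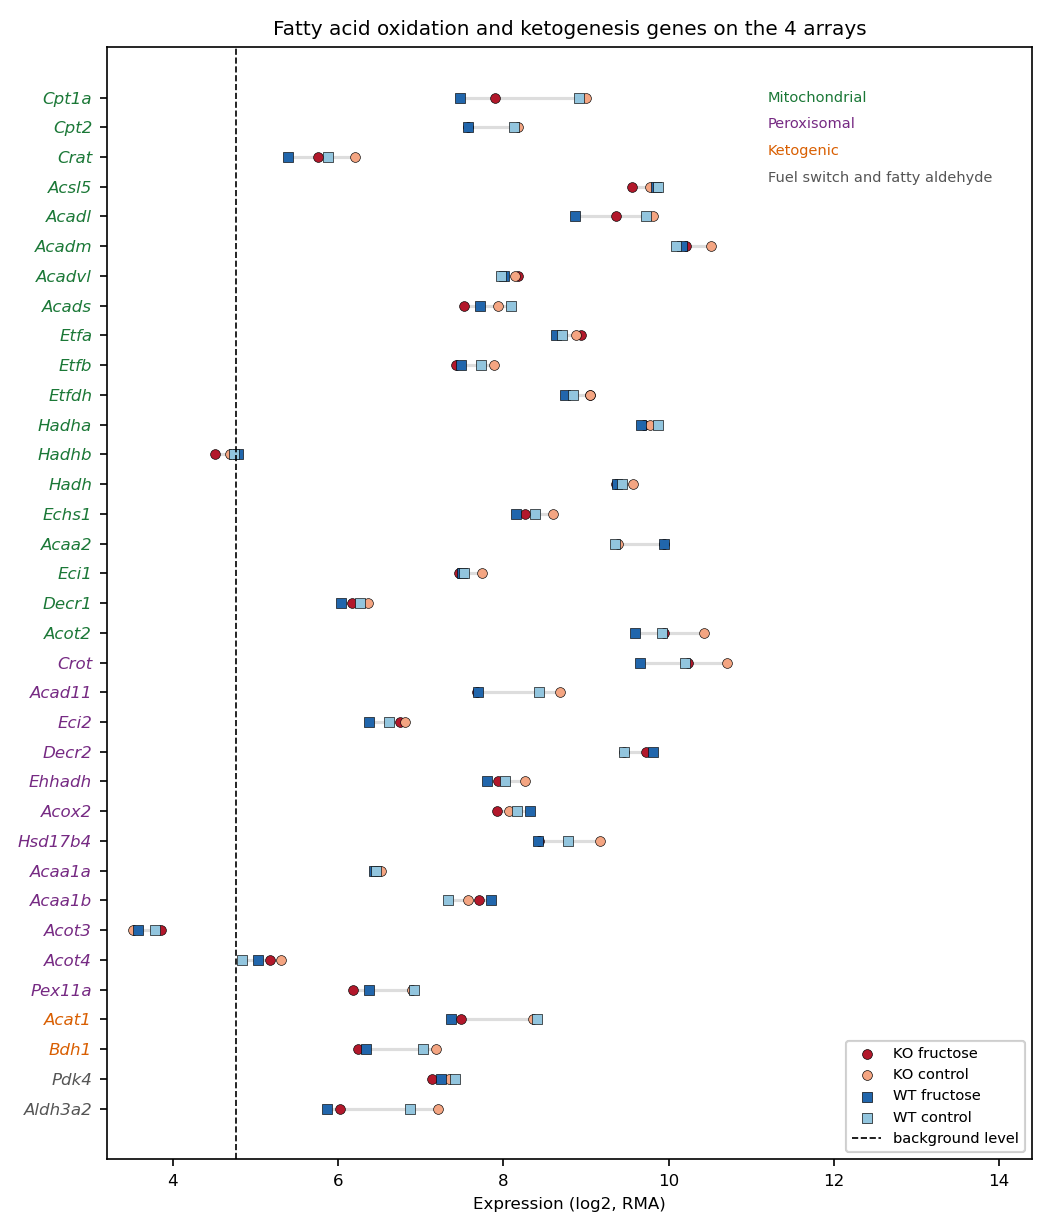
Log2 expression of the 35 genes on the 4 arrays (circles, KO; squares, WT; dark, fructose; light, control), with gene names coloured by step and the background level of 4.764 as a dashed line. Cpt1a, Acad11, Acat1, Bdh1 and Aldh3a2 are among the genes with both fructose arrays left of both control arrays, as are Cpt2 and Acadl. Acaa2, Decr2 and Acaa1b have them on the right, and Acot3 lies below background throughout. The share of all genes separated in this way was not counted.

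Promoter sequences are given for 3 genes that were among the lowest with fructose in both genotypes (Cpt1a, Acad11 and Aldh3a2, 1.67-fold to 2.72-fold lower) and for Acaa1b, which was higher with fructose. They are RefSeq windows of GRCm38.p6 from 250 bases before to 50 after the gene's start, on the gene's strand. The windows are chr19:3323051-3323350 (+) for Cpt1a, chr9:104063474-104063773 (+) for Acad11, chr11:61267137-61267436 (-) for Aldh3a2 and chr9:119157044-119157343 (-) for Acaa1b. Capitals mark the element AGGTCA, the E-box letters CACGTG and the CCAAT box on either strand.
Cpt1a: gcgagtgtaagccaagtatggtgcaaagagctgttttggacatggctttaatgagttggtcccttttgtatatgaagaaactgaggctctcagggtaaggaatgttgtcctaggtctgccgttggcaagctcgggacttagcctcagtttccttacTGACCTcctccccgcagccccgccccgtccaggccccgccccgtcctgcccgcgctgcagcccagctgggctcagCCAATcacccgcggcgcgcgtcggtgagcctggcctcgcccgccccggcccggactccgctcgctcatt
Acad11: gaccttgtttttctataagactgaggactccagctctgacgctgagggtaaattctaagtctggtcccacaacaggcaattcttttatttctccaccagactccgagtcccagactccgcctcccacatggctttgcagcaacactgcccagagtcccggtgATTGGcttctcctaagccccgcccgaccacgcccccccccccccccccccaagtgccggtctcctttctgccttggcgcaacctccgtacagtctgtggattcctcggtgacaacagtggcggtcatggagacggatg
Aldh3a2: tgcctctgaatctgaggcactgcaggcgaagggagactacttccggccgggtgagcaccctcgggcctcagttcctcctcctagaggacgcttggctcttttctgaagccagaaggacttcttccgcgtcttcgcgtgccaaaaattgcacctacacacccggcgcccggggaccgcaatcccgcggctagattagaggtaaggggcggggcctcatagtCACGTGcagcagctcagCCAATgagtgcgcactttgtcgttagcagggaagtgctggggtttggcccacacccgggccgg
Acaa1b: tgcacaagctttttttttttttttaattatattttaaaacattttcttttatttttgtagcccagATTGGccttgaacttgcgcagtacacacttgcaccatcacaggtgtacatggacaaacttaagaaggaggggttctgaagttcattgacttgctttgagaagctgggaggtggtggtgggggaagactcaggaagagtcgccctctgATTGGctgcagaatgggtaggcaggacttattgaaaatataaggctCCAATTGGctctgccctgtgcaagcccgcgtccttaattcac

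AGGTCA is the element that nuclear receptors such as the PPARA dimer read as a repeat, the E-box is bound by many basic helix-loop-helix factors, and the CCAAT box is read by the factor NF-Y. The Cpt1a window holds AGGTCA on its reverse strand 94 bases before the start. AGGTCA occurs in 7 of the 35 windows found for 31 of the 36 genes, Acsl1 among them (20.0%), against 16.3% of 32851 mouse windows of the same length. These 7 windows belong to 6 genes, because overlapping windows of Acot3 hold the same copy. The direct repeat of 2 copies of AGGTCA spaced by 1 base of any kind, on either strand with up to 2 mismatches, occurs in 4 windows (11.4%), against 3.86% of all windows. Those 4 belong to Acot4, Acox2, Echs1 and Etfa, none of which differed by 1.5-fold in any comparison as averaged over probe sets, and in Acot4 and Echs1 the repeat includes AGGTCA. The E-box letters occur in 2 windows, of Aldh3a2 and Acot4 (5.71%, against 7.15%). The CCAAT box occurs in 20 windows of 19 genes (57.1% of windows, against 37.4%). The member windows have a median GC content of 58.7%, against 52.7% in all windows. The windows of Hadha and Hadhb, whose products form the trifunctional protein, share 228 bases and hold none of the 4 motifs. A match of letters is a description and shows no binding.

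With fructose, most genes of fatty acid oxidation were lower, in KO as in WT cells. Of 33 detected genes in KO, 28 were lower with fructose than without it (all detected genes, 50.6%), and of 34 in WT, 26 were lower (all detected genes, 52.5%). The median log2 difference was -0.31 in KO and -0.22 in WT, against 0.00 and -0.03 over all detected genes. At 2-fold, 2 genes were lower in KO, Aldh3a2 and Cpt1a, where 1.18% of all detected genes were lower and 1.68% higher. In WT, 2 were lower, Cpt1a and Acat1, where 3.01% of all were lower and 3.10% higher. No gene of the group was 2-fold higher in either genotype. At 1.5-fold, 8 of 33 were lower in KO and 0 higher (all detected genes, 5.75% and 6.11%), and 6 of 34 were lower in WT and 1 higher (10.8% and 9.46%). In the same comparisons hepatocyte markers had medians of 0.12 in KO and 0.14 in WT, macrophage markers of 0.09 and 0.17, and endothelial markers of -0.03 and -0.13. The hepatocyte markers were uneven, with 1 of 10 below 0 in KO and 2 of 10 in WT. Tat had 11.89 in KO fructose and 9.88 in KO control cells, and 11.87 in WT fructose and 9.66 in WT control cells. Hnf4a differed by -0.50 in KO and -0.75 in WT. The part of these cell types in the differences was not tested.

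The entry of fatty acids into mitochondria had the lowest value of the group in WT. Cpt1a, which makes long-chain acylcarnitines at the outer mitochondrial membrane, had log2 values of 7.90 in KO fructose and 9.01 in KO control cells, and of 7.47 in WT fructose and 8.92 in WT control cells. Both fructose arrays lay below both control arrays, as they did for other genes of the group. The share of all genes separated in this way was not counted. The difference of -1.11 in KO (2.16-fold lower) ranked 86 from the lowest of 10752 detected genes, and that of -1.45 in WT (2.72-fold lower) ranked 77 of 10814.

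The other genes of the carnitine route, a grouping made after the values were seen, were lower as well. Cpt2, which turns acylcarnitine back into acyl-CoA in the matrix, had 7.57 in KO fructose and 8.18 in KO control cells, and 7.57 in WT fructose and 8.13 in WT control cells. The differences were -0.61 in KO and -0.56 in WT. Crot, the peroxisomal carnitine octanoyltransferase, had 10.23 in KO fructose and 10.71 in KO control cells, and 9.65 in WT fructose and 10.20 in WT control cells. Its KO values were above the WT values in the same medium, and the fructose differences of -0.47 in KO and -0.54 in WT were close. Slc25a20, the carnitine-acylcarnitine carrier of the inner membrane, differed by -0.50 in KO and -0.54 in WT, and Slc22a5, the carnitine importer of the cell, by -0.45 in KO and -0.88 in WT. Crat, which handles short acyl chains, differed by -0.45 in KO and -0.48 in WT. Its probe sets were unequal: the dimmer one was below background on 3 of the 4 arrays and gives no measured difference, whereas the brighter one alone gave -0.77 in KO and -0.88 in WT. All 6 genes of the route were below 0 in both genotypes (all genes detected in both, 40.8%), with medians of -0.49 in KO and -0.55 in WT. Because the grouping followed the values, this count is no separate evidence about the route.

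**Figure D2:**
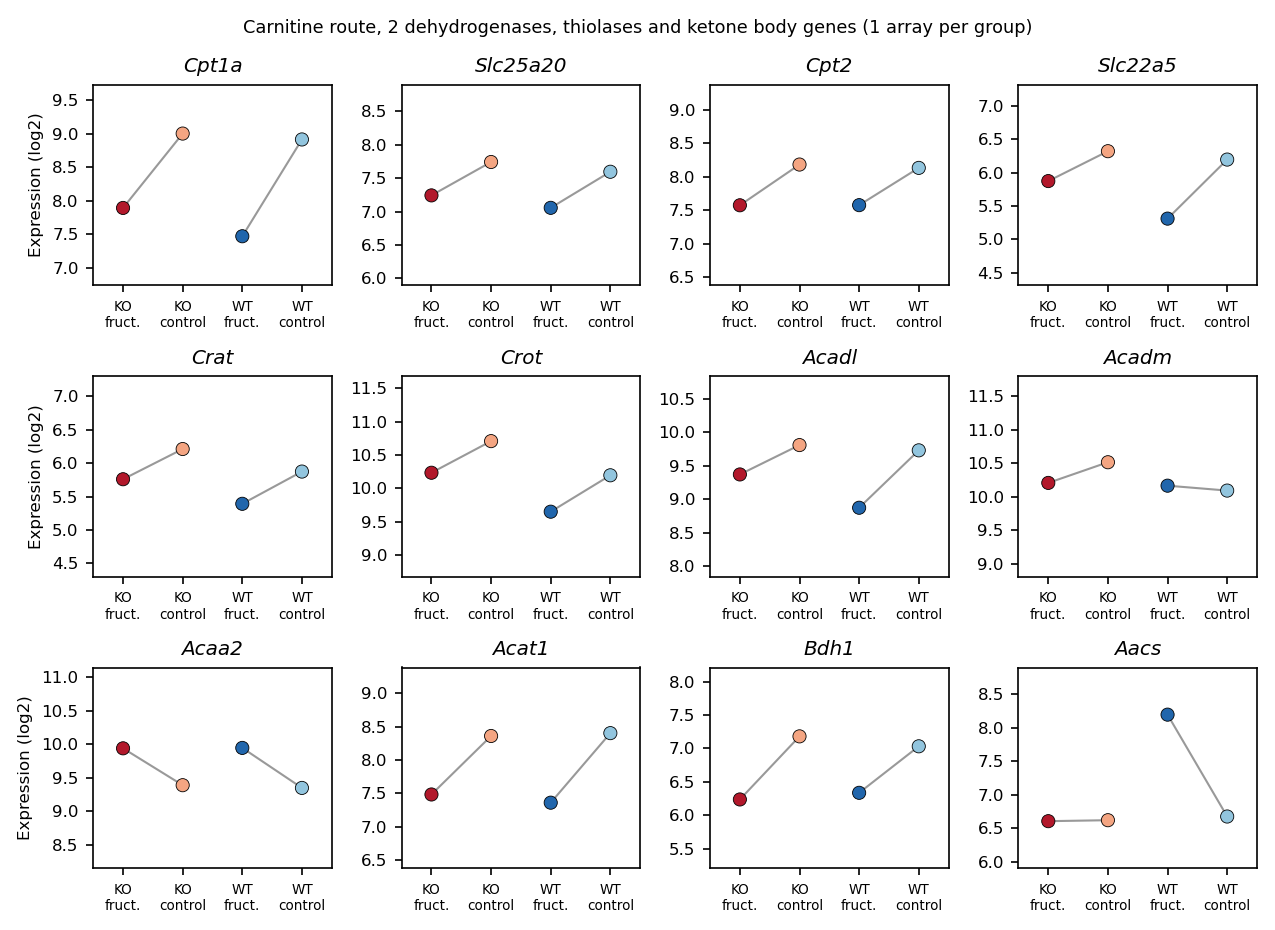
Log2 expression on each array for 12 genes, with KO fructose, KO control, WT fructose and WT control from left to right and a line joining the arrays of a genotype; each panel spans 3 log2 units. Within each genotype, the 6 carnitine genes, Acadl, Acat1 and Bdh1 are lower with fructose and Acaa2 is higher. Aacs is high on the WT fructose array alone.

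The acyl-CoA dehydrogenases, which take the first step of each turn at different chain lengths, differed unequally. Acadl, for long chains, had 9.37 in KO fructose and 9.81 in KO control cells, and 8.87 in WT fructose and 9.73 in WT control cells. The WT fructose array was the lowest of the 4, and the differences were -0.44 in KO and -0.86 in WT. Acadm, for medium chains, had 10.21 in KO fructose and 10.52 in KO control cells, and 10.16 in WT fructose and 10.09 in WT control cells. Here the KO control array stood above the other 3. Acadvl, for very long chains, differed by only 0.03 in KO and 0.04 in WT, and Acads, for short chains, by -0.41 and -0.38. Among the electron acceptors of these enzymes, Etfa differed by 0.07 in KO and -0.07 in WT, Etfdh by 0.00 and -0.09, and Etfb by -0.46 and -0.24.

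Most later mitochondrial steps were lower by small amounts, and a thiolase was higher. Hadha, the alpha subunit of the trifunctional protein, differed by -0.07 in KO and -0.21 in WT, Hadh by -0.21 and -0.06, and Echs1, the short-chain hydratase, by -0.34 and -0.24. Hadhb, the beta subunit, differed by 0.05 in WT, where 1 of the arrays was just above background. Acaa2, the mitochondrial 3-ketoacyl-CoA thiolase, had 9.94 in KO fructose and 9.39 in KO control cells, and 9.95 in WT fructose and 9.35 in WT control cells. It was 1.46-fold higher in KO and 1.51-fold higher in WT, the highest difference of the group in both. Eci1 and Decr1, which rearrange unsaturated chains, differed by -0.28 and -0.19 in KO, against -0.02 and -0.23 in WT. Acsl5, which activates fatty acids, differed by -0.22 in KO and -0.02 in WT, and Acot2, a matrix thioesterase, by -0.48 and -0.32. In all, 15 of 18 detected mitochondrial genes were lower in KO and 15 of 19 in WT, with medians of -0.30 and -0.21.

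Both ketogenic genes were lower with fructose in both genotypes. Acat1, the mitochondrial acetoacetyl-CoA thiolase that starts ketogenesis and also ends ketone use, had 7.49 in KO fructose and 8.36 in KO control cells, and 7.36 in WT fructose and 8.40 in WT control cells. It was 1.83-fold lower in KO and 2.05-fold lower in WT. The fructose and control arrays did not overlap, which also held for other genes of the group. Of all genes detected in both genotypes, 40.8% were below 0 in both, and the share without overlap was not counted. Bdh1, which converts acetoacetate to beta-hydroxybutyrate, had 6.24 in KO fructose and 7.18 in KO control cells, and 6.34 in WT fructose and 7.03 in WT control cells. It was 1.92-fold lower in KO, at rank 159 from the lowest, and 1.62-fold lower in WT, at rank 836. The thiolases Acat1 and Acaa2 thus differed in opposite directions with fructose.

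The 11 detected peroxisomal genes had a median of -0.15 in KO and -0.22 in WT. Acad11, an acyl-CoA dehydrogenase, had 7.68 in KO fructose and 8.68 in KO control cells, and 7.69 in WT fructose and 8.43 in WT control cells. The difference of -1.00 in KO was just short of 2-fold, which it passed with repeated quantile normalization (-1.02) and loess (-1.01), and that in WT was -0.74. Hsd17b4, the D-bifunctional protein, had 8.43 in KO fructose and 9.17 in KO control cells, and 8.42 in WT fructose and 8.78 in WT control cells. The fructose arrays of both genotypes were level, and the differences were -0.74 in KO and -0.36 in WT. Pex11a, which takes part in peroxisome division, was 1.64-fold lower in KO and 1.45-fold lower in WT, and Ehhadh, the L-bifunctional enzyme, differed by -0.33 and -0.22. Eci2 and Acaa1a lay close to 0 in KO (both -0.06), and differed by -0.25 and -0.04 in WT.

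Some peroxisomal genes were higher with fructose. Acaa1b, a peroxisomal thiolase, had 7.70 in KO fructose and 7.57 in KO control cells, and 7.86 in WT fructose and 7.33 in WT control cells. The WT difference was 0.53 and the KO difference 0.13. Decr2, the peroxisomal dienoyl-CoA reductase, was 1.21-fold higher in KO and 1.28-fold higher in WT. Acaa1a and Acaa1b, and the Acot2, Acot3 and Acot4 thioesterases, are close relatives that can share probes, so their separate values are uncertain.

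Pdk4 and Aldh3a2 complete the group. Pdk4, the kinase that inhibits pyruvate dehydrogenase in fasting, had 7.13 in KO fructose and 7.34 in KO control cells, and 7.24 in WT fructose and 7.41 in WT control cells. It was thus lower by no more than 1.15-fold. Aldh3a2, which oxidises fatty aldehydes, had 6.03 in KO fructose and 7.21 in KO control cells, and 5.87 in WT fructose and 6.87 in WT control cells. It was 2.27-fold lower in KO, at rank 67 from the lowest, and its WT difference of -1.00 was just short of 2-fold. The brighter of its probe sets gave -1.19 in KO and -1.26 in WT, and the dimmer was below background on both fructose arrays, so that its part in the averaged values above, fold and rank included, is not a measured level.

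**Figure D3:**
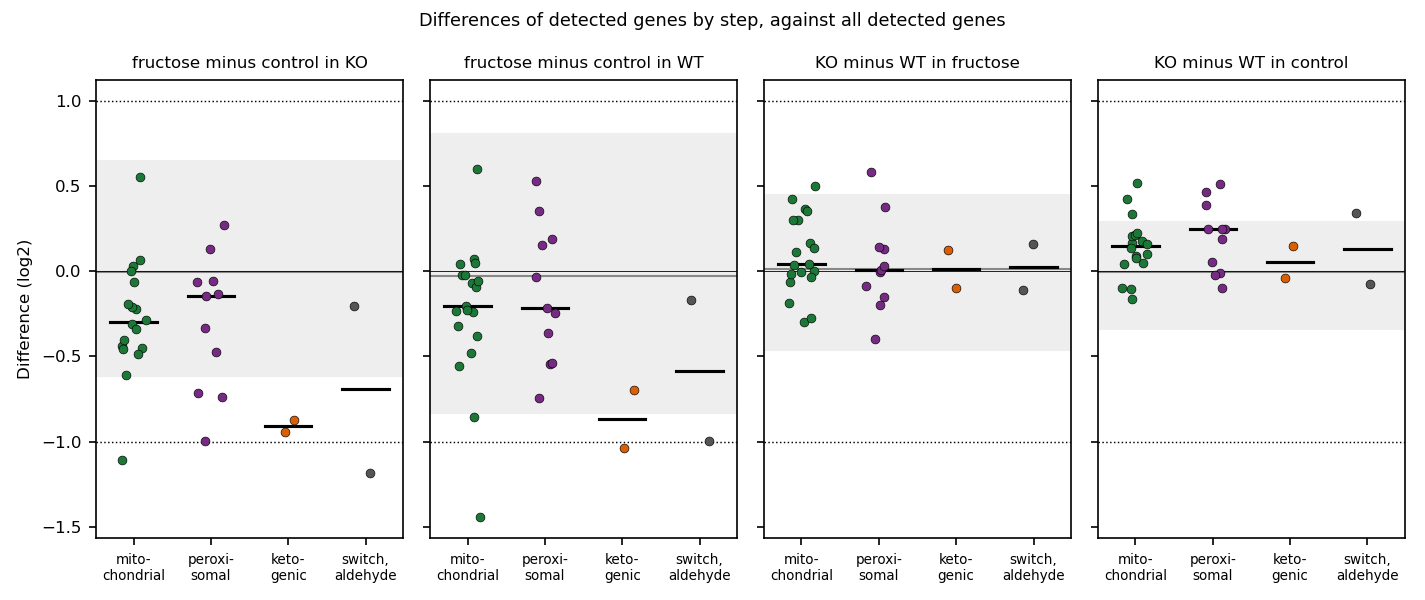
Log2 difference of each detected gene (points) and the median (bars) by step in 4 comparisons, with the range from the 5th to the 95th percentile of all detected genes in grey and 2-fold as dotted lines. The fructose panels lie mostly below 0, and the panel of KO minus WT in control medium mostly above it, with no gene at 1.5-fold.

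The fructose differences of the genotypes, which come from separate arrays, ran the same way for most of these genes. Of 33 genes detected in both, 25 were below 0 in both (75.8%, against 40.8% of all 10516 genes detected in both), 4 were above 0 in both and 4 had opposite signs. Cpt1a, Acat1, Bdh1, Acad11 and Aldh3a2 were at least 1.5-fold lower in both, which is 15.2% of the group, against 4.62% of all genes. Across the 33 genes the Pearson correlation of the differences was 0.89, and it was 0.83 over all genes. The points share the arrays, and genes are not independent replicates.

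**Figure D4:**
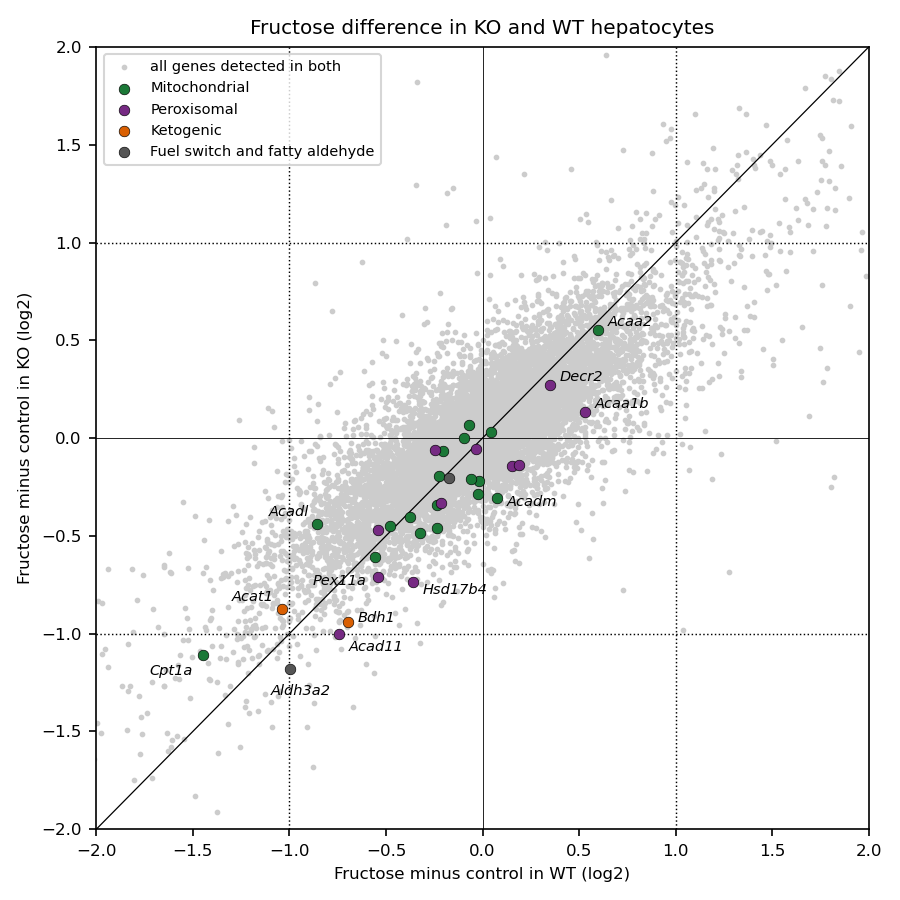
Fructose minus control in KO (vertical) against WT (horizontal), both log2, for genes detected in both genotypes (grey) and for the genes of fatty acid oxidation coloured by step; genes beyond 2 log2 units are outside the plot, dotted lines mark 2-fold and the diagonal marks equal differences. The 25 genes below 0 in both genotypes fill the lower left of the plot, and Acaa2 is the highest.

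The difference of the fructose effects, KO minus WT, reached 1.5-fold for 0 of 34 genes in either direction, where 2.60% of all detected genes were lower and 2.86% higher (2-fold, 0.588% and 0.443%). Its median was -0.09, against 0.03 over all genes, and 24 of 34 genes were below 0 (all detected genes, 45.0%). The range ran from -0.40 for Acaa1b to 0.42 for Acadl. Acadl and Cpt1a (0.34) had the deeper fructose difference in WT, and Hsd17b4 (-0.38) and Acad11 (-0.26) in KO. Acadm stood at -0.38, and its WT difference was 0.07. Acot4 was at -0.32 as averaged and at -0.72, past 1.5-fold, by its brighter probe set.

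In control medium most of these genes were slightly higher in KO than in WT cells. Of 33 detected genes, 25 were above 0 (all detected genes, 48.0%), with a median log2 difference of 0.16, against -0.01 over all. None reached 1.5-fold as averaged over probe sets, as few genes did on these arrays: 0.476% of all detected genes were higher and 1.10% lower (2-fold, 0.0373% and 0.196%). Acot2 had 10.43 in KO and 9.92 in WT control cells, a difference of 0.52 that ranked 82 from the highest of 10720 detected genes. Crot, with a difference of 0.51, ranked 87. Acadm was 1.34-fold higher, at rank 180, and Hsd17b4 1.31-fold higher, at rank 231. Acot4 differed by 0.47 as averaged, but its brighter probe set alone gave 0.79, past 1.5-fold, and the other was below background on all 4 arrays. By step, 15 of 18 mitochondrial genes (median 0.15) and 8 of 11 peroxisomal genes (median 0.25) were above 0, and Acads had the lowest value (-0.16).

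In fructose medium the direction was mixed. Of 34 detected genes, 19 were higher in KO (all detected genes, 52.5%), the median was 0.03, against 0.01 over all, and none reached 1.5-fold (all detected genes, 2.45% higher and 2.86% lower; 2-fold, 0.543% and 0.739%). Crot had 10.23 in KO and 9.65 in WT fructose cells, a difference of 0.58, the nearest of the group to 1.5-fold, which it passed (0.60) with median centring or repeated quantile normalization. Acadl differed by 0.50, Cpt1a by 0.42 and Eci2 by 0.38, and Acox2, a peroxisomal oxidase of branched chains and bile acid intermediates, had the lowest value (-0.40). Most macrophage markers were lower in KO in both media. With fructose 11 of 13 were lower (all detected genes, 47.5%), with a median of -0.45. In control medium 12 of 13 were lower (all detected genes, 52.0%), with a median of -0.36. The log2 of their summed linear values was 11.50 in KO and 11.32 in WT fructose cells, and 11.43 in KO and 11.53 in WT control cells. These sums rest mainly on Cd68, the brightest of the markers. Cd68 had 11.22 in KO and 10.79 in WT fructose cells, and 11.12 in KO and 11.04 in WT control cells. C1qc and Vsig4, lower in KO in both counts, were below background on all 4 arrays, so their differences are not measured ones. Adgre1 was below background on both control arrays (4.44 in KO and 4.62 in WT), so its difference in control medium is not a measured one either. Endothelial markers had medians of -0.27 with fructose and -0.32 in control medium, and hepatocyte markers of 0.03 and -0.01. The part of other cell types in the genotype differences was not tested. The genotype comparisons use the same 4 arrays as the fructose comparisons above, so these values are not separate evidence.

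Another 120 genes of the pathway were followed in 6 lists, of which 103 had a value. Beside the mitochondrial enzymes above, 17 further detected genes of mitochondrial steps had medians of -0.29 in KO and -0.33 in WT (all detected genes, 0.00 and -0.03). Of these, 13 of 17 in KO and 12 of 17 in WT were below 0 (all detected genes, 50.6% and 52.5%). Acot13, a thioesterase, had 8.56 in KO fructose and 9.44 in KO control cells, and 8.15 in WT fructose and 9.39 in WT control cells, which made it 1.85-fold lower in KO and 2.36-fold lower in WT. Them4, also a thioesterase, went the other way, 2.25-fold higher in KO and 3.54-fold in WT. Acsm1, a medium-chain acyl-CoA synthetase, was 1.86-fold and 1.80-fold higher, and Acad9 1.59-fold and 1.51-fold lower. Further peroxisomal genes had medians near 0, 0.00 in KO over 26 genes and 0.05 in WT over 25. At 2-fold none were lower or higher (all detected genes, 1.18% and 1.68% in KO, 3.01% and 3.10% in WT). Scp2, the sterol carrier and thiolase, was higher by 0.46 in KO and 0.58 in WT. Catalase, Cat, lay between 12.31 and 12.37 on all 4 arrays. Pex19 differed by -0.41 in KO and -0.56 in WT, and Nudt7 by 0.68 and 0.48.

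Among 6 detected genes of ketone body handling, Aacs and Slc16a1 stood out on the WT fructose array. Aacs, which activates acetoacetate in the cytosol for lipid synthesis, had 6.60 in KO fructose and 6.62 in KO control cells, and 8.19 in WT fructose and 6.67 in WT control cells. The WT fructose array stood alone, 2.87-fold above WT control and with KO fructose 3.01-fold lower. Slc16a1, a carrier of lactate and ketone bodies, had 8.58 in KO fructose and 8.49 in KO control cells, and 9.67 in WT fructose and 8.91 in WT control cells. It was 2.12-fold lower in KO with fructose. Sirt5, a mitochondrial deacylase, differed by -0.38 in KO and -0.81 in WT.

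Regulators of oxidation differed in both directions. Ppara was close to background on all arrays, with 4.97 in KO fructose, 4.97 in KO control, 4.83 in WT fructose and 4.91 in WT control cells. Ppard, a related receptor, was 2.40-fold higher with fructose in KO and 1.85-fold in WT, and Pparg was 1.94-fold and 2.04-fold lower. Creb3l3, a liver factor that works with PPARA in fasting, had 8.52 in KO fructose and 8.21 in KO control cells, and 9.42 in WT fructose and 8.08 in WT control cells. It was high on the WT fructose array, and so were Acaca, whose product makes malonyl-CoA (-0.20 in KO and 1.82 in WT), and Prkaa2, an AMP-activated kinase subunit (0.32 and 1.03). Lpin2, a phosphatidate phosphatase, differed by 0.59 in KO and -0.29 in WT. In this list 1 of 22 detected genes was 2-fold higher in KO and 0 lower (all detected genes, 1.68% and 1.18%), and 4 of 23 were higher in WT and 1 lower (3.10% and 3.01%).

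A further list held 14 detected genes taken here as PPARA targets. In KO, 3 of them were 2-fold higher and 1 lower with fructose (all detected genes, 1.68% and 1.18%). In WT, 5 were higher and 2 lower (3.10% and 3.01%). Txnip is among the higher genes in both genotypes, and its place in the list was not tested. Fgf21 and Creb3l3, both among the 5, are also counted with the regulators. The hormone gene Fgf21, with log2 values of 5.78 in KO fructose and 4.96 in KO control cells, and of 9.28 in WT fructose and 4.95 in WT control cells, differed by 0.82 in KO and 4.32 in WT. Cidec, a lipid droplet protein, was 3.88-fold higher in KO and 6.58-fold in WT, Fabp1, the liver fatty acid binding protein, 2.58-fold and 2.45-fold, and Txnip, the thioredoxin inhibitor, 2.40-fold and 14.7-fold. Vnn1, a pantetheinase, was 2.25-fold and 3.84-fold lower, and Cd36, a fatty acid importer, 1.96-fold and 2.25-fold lower. Cyp4a14, a fatty acid hydroxylase, had 6.43 in KO fructose and 4.99 in WT fructose cells, and 5.73 in KO control and 4.53 in WT control cells, the last of which is below background. Thus it was 2.72-fold higher in KO with fructose and at least 1.96-fold higher in control medium.

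The entry of pyruvate into the citric acid cycle had one large difference. Pdhb, the beta subunit of the E1 component of pyruvate dehydrogenase, had 9.22 in KO fructose and 8.89 in KO control cells, and 11.31 in WT fructose and 9.00 in WT control cells. The WT fructose array stood apart, 4.97-fold above WT control, and KO fructose was 4.25-fold below it. The partner subunit Pdha1 differed by -0.25 in KO and -0.15 in WT, Dlat by -0.24 and -0.38, and Pdk2 by 0.30 and 0.49. Of 12 detected genes in this list, Pdhb alone reached 2-fold in any of these comparisons. Over all detected genes, 3.10% were 2-fold higher with fructose in WT, and 0.739% were 2-fold lower in KO than in WT with fructose.

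**Figure D5:**
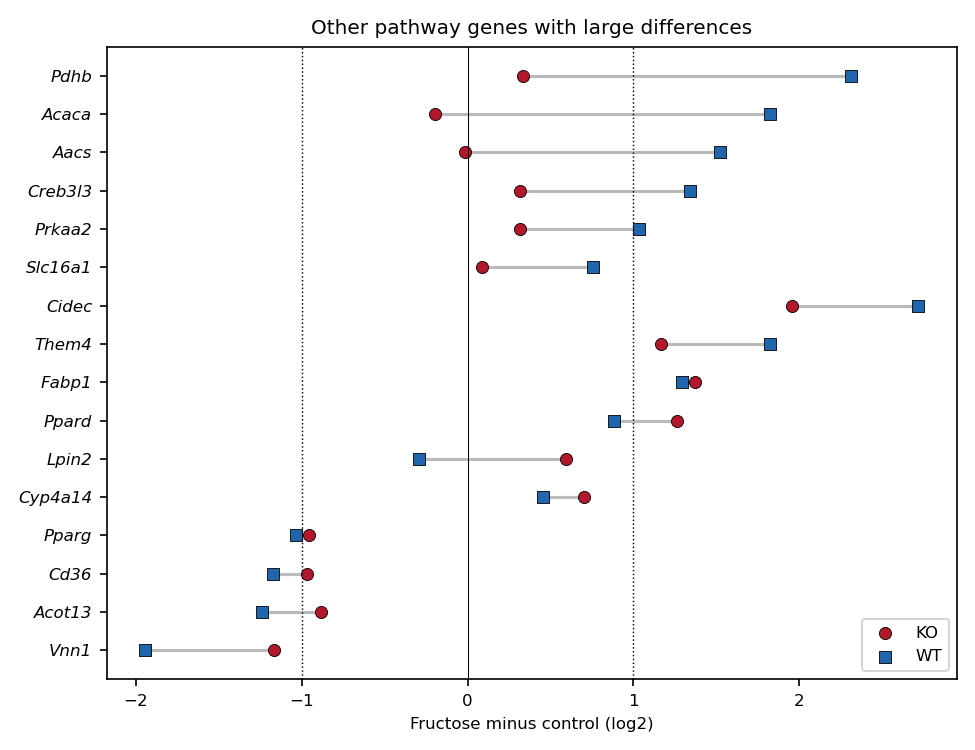
Fructose minus control (log2) in KO (circles) and WT (squares) for 16 other pathway genes, chosen after their values were seen. Dotted lines mark 2-fold. Fgf21 and Txnip, with larger differences in WT (4.32 and 3.88), are not drawn. Pdhb, Acaca and Aacs lie above 1.5 in WT and below 0.4 in KO, whereas Cidec, Them4 and Fabp1 pass 1 in both genotypes and Vnn1 lies below -1 in both.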

How the data were processed

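The authors deposited log2 values of 1-colour Affymetrix whole-transcript arrays at the level of probe sets. Robust multi-array averaging (RMA) in R, version 3.4.0, made them, per the submitters' processing notes. RMA makes the arrays' distributions alike, so a shift shared by all genes cannot be seen. The array's annotation is not given in the sources used here, nor its build. Of 41345 probe sets, 23521 carried 1 gene symbol and 1814 several; those with several or none were left out. Symbols were updated by Entrez number through RefSeq GRCm38.p6 (23328 matched), and probe sets were averaged per gene (22180 genes). Differences were taken between single arrays, with thresholds of 2-fold and 1.5-fold, in Python 3.11.15 with pandas 2.3.3. The counting procedure was checked on simulated data, which is no test of the counts reported. No p-value is possible with 1 array per group, which limits the precision of every value. All 36 genes are named by rule. Of the other pathway lists, those past 2-fold are named, with some, not all, of those with the largest differences. Some others were named after their values were seen. Genes and lists were chosen with earlier results of these data known. Alternatives were 3 renormalizations (median centring, repeated quantile, loess with span 0.3), 2 filters, the brightest probe set, values raised to background, and other thresholds.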

Additional observations from a re-analysis of the deposited data

Results flagged for a closer look

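For 4 of the 33 genes detected in both genotypes, the fructose difference had opposite signs in KO and WT; with 1 array per group this was not tested. Acadm differed by -0.31 in KO and 0.07 in WT, a difference between the effects of -0.382. Acox2 differed by -0.14 in KO and 0.15 in WT (-0.297), and Acot4, close to background, by -0.14 in KO and 0.19 in WT (-0.324). Etfa differed by 0.07 in KO and -0.07 in WT (0.136). Over all genes detected in both genotypes, 21.6% had opposite signs, against 12.1% of this group.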

How the results depend on the processing

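No paired analysis was possible because each group has 1 array, and no array could be left out. At 1.5-fold, 8 genes were lower with fructose in KO and 6 lower and 1 higher in WT; at 3-fold, 0 were lower in KO and 0 in WT. Under the 7 other alternatives each count of genes past 2-fold stayed within 1.5 times its value and each median moved by no more than 0.1, in all 5 comparisons. Of 1225 recomputed values of single genes, 16 moved by more than 0.1, 8 with the brightest probe set and 8 with values raised to background, and none past 2-fold changed sign. Aldh3a2 in WT passed 2-fold with the brightest probe set (-1.26), and Acad11 in KO with repeated quantile normalization (-1.02) and loess (-1.01), each taking its count from 2 to 3. With the brightest probe set, Crat passed 1.5-fold in KO (-0.77) and WT (-0.88), and Acot4 did so between genotypes in control medium (0.79) and between the fructose effects (-0.72). Acaa2 in WT was short of 1.5-fold with repeated quantile normalization (0.56), and Crot between genotypes in fructose passed it (0.60).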
